A study of Mus musculus with 12 samples.

Results

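The data are H3K27ac measurements at 9 genes of the matricellular and adhesive extracellular matrix, namely Postn, Sparc, Fn1, Tnc, Thbs1, Spp1, Lox, Fbn1 and Bgn, in the mouse mammary carcinoma cell line 4T1. The members were the rows of the deposited table whose gene name was 1 of these 9, which gave 84 of 126464 intervals and 8 of 22264 gene symbols, since no interval carried the name Thbs1. An interval is a stretch of the genome with enriched reads, and its value is the number of reads multiplied by a factor from human chromatin added to every sample, called scaled reads here. H3K27ac, an acetylated form of histone H3, marks active promoters and enhancers. In all, 6 treatments of 48 h with 2 libraries each were compared (12 libraries), namely vehicle, etomoxir and etomoxir + SB204990, each with and without acetate, where acetate was given at 5 mM and either inhibitor at 50 µM. Acetate can be turned into acetyl-CoA, the donor of histone acetylation, etomoxir inhibits carnitine palmitoyltransferase (Cpt1a) and thereby the entry of long-chain fatty acids into mitochondria, and SB204990 inhibits ATP citrate lyase (Acly), which makes acetyl-CoA from citrate. No treatment held SB204990 without etomoxir. All libraries came from 1 cell line, and the 2 suffixes of the library names are called set 1 and set 2.

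Matricellular proteins are secreted into the matrix and act on cells mainly through receptors and growth factors rather than as building material. Fibronectin (Fn1), thrombospondin-1 (Thbs1), tenascin-C (Tnc), periostin (Postn) and osteopontin (Spp1) bind integrins on the cell surface, SPARC (Sparc) binds collagen, lysyl oxidase (Lox) cross-links collagen and elastin, fibrillin-1 (Fbn1) builds microfibrils, and biglycan (Bgn) is a small proteoglycan that binds collagen. In carcinomas several of them are made by stromal fibroblasts, and carcinoma cells that have taken on mesenchymal traits also make them.

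Reads in intervals ranged from 7179165 to 16676442 per library. The etomoxir + SB204990 library of set 2 held the fewest and stood apart from the others, with 2.77% of its reads in the weakest 25% of intervals against 0.990% to 1.41% elsewhere, so results that rest on it are also given without it. Its scaling factor was 1 against 0.398 in set 1 of the same treatment, while the factors of the other libraries were 0.467 to 1. A factor of 1 was reached once in each set, by etomoxir + acetate in set 1 and by etomoxir + SB204990 in set 2, so the sets may have been scaled apart from each other, and differences within a set are given beside the pooled ones. Of 7 epithelial markers, 5 had intervals, with 29.6 to 53.7 scaled reads per kb (mean of 12 libraries), among them Cdh1 and Epcam, while Krt18 and Krt5 had none under their own name. The 4 fibroblast markers held 13.9 to 21.7, the 3 immune markers with an interval 12.9 to 25.2 and the 3 endothelial ones 17.9 to 41.4. In bulk libraries, a change in the share of cells that carry the mark and a change per cell cannot be told apart. The labels do not say whether the 2 libraries of a treatment came from separate cultures, so the p-values measure only the spread between these libraries.

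The start of a gene was covered by an interval named for it at 4 of the 9 members, Postn, Tnc, Spp1 and Sparc. Their promoter windows (250 bases before to 50 bases after the RefSeq start, GRCm38.p6, the assembly of mm10) are shown because the mark was measured over them, with the letters that matched a searched motif in capitals.
Postn promoter, chr3:54360857-54361156, plus strand: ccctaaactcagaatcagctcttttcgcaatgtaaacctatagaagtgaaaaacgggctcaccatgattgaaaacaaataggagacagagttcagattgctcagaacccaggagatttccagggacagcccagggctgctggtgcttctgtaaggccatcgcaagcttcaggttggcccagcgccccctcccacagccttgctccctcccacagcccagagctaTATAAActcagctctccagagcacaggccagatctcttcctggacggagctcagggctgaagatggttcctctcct
Tnc promoter, chr4:64046966-64047265, minus strand: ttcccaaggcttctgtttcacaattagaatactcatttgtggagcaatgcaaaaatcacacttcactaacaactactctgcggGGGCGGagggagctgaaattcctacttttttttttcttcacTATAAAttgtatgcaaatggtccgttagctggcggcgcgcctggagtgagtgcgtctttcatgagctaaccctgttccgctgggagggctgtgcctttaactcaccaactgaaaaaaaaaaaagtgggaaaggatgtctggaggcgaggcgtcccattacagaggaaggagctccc
Spp1 promoter, chr5:104434861-104435160, plus strand: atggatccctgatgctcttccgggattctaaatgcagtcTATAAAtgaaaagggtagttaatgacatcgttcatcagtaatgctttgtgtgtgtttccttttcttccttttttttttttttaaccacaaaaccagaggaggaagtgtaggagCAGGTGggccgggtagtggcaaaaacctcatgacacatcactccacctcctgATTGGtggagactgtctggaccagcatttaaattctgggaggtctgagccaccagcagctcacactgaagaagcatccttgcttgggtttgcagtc
Sparc promoter, chr11:55420031-55420330, minus strand: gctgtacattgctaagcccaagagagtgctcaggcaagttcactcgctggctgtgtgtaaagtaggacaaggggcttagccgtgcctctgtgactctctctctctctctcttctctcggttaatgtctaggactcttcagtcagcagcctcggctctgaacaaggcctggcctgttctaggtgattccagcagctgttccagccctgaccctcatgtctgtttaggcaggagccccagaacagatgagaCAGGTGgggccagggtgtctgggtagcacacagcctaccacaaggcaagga

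The Postn window had a TATA box (TATAAA) at -26 to -21 from the start, which 13.6% of all 32851 RefSeq promoter windows hold somewhere on either strand. The Tnc window had TATAAA at -126 to -121 and a GC box (GGGCGG, in 35.7% of windows) at -167 to -162. The Spp1 window had TATAAA at -211 to -206, an E2 box (CACCTG, in 20.2%) at -98 to -93 and a CCAAT box (CCAAT, in 37.4%) at -46 to -42. The Sparc window held only an E2 box, at -1 to 5, and its RefSeq start lies 3103 bp inside the gene from the GENCODE start, both being under the same interval. None of the 4 windows held the AP-1 motif TGANTCA (in 7.81% of all windows) or the TEAD motif GGAATG (in 14.7%). Both strands were searched, no matches overlapped in these windows, and a match is a description of the letters, not a binding site. The whole Tnc, Spp1 and Sparc windows lay inside an interval, and 189 of the 300 bases of the Postn window did. Postn, Tnc and Spp1 each had another RefSeq window, not shown, that lay wholly inside an interval. In it Postn held a CCAAT box at 25 to 29 and no TATA box, Tnc the same GC and TATA boxes and Spp1 no motif. Windows were found for 6 of the 9 members (Fn1, Thbs1 and Lox had no entry), and those of Fbn1 and Bgn, not shown, lay outside every interval. Over the 22 tested member intervals of at least 2 kb, the median density of the AP-1 motif was 0.393 per kb, against 0.360 per kb over all 30216 such intervals.

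Most of the mark assigned to these genes lay away from their starts. Of the 84 intervals, 4 covered the start of the member in the GENCODE vM21 annotation and 80 did not (called distal here), 62 were intergenic by the authors' annotation and 54 lay more than 20 kb from the start. Only 1 distal interval covered the start of another protein-coding gene, Pkd2, and it was named for Spp1. The intervals were 190 to 28394 bp long, with a median of 790 bp against 715 bp over all intervals. The mean over the 12 libraries reached 10 scaled reads in 47 of them, 3 covering a start and 44 distal, and the other 37 were too low to be tested. The map of intervals around the 9 genes shows where each stood.

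**Figure D1:**
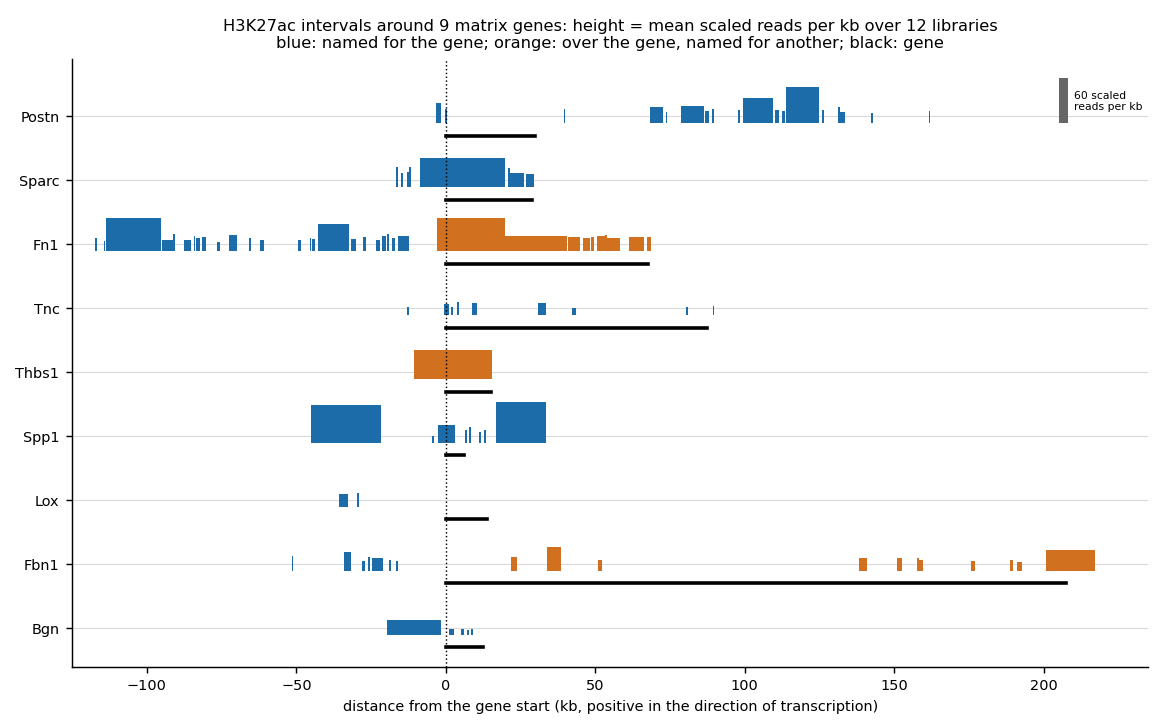
Intervals around each gene, plotted by distance from the gene start in kb (positive in the direction of transcription), with block height giving the mean of 12 libraries in scaled reads per kb. Blue blocks were named for the gene, orange blocks lay over the gene but were named for another gene, and the black bar is the gene. At Postn the strongest block stood downstream of the end of the gene, whereas at Sparc 1 block of 28394 bp covered the start.

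Per length, the order of the members by name was Spp1 with 46.5 scaled reads per kb of its intervals, Sparc 34.5, Postn 30.1, Fn1 29.1, Fbn1 18.9, Bgn 17.9, Lox 17.5 and Tnc 13.8 (means of 12 libraries). Spp1 stood at or above 92.0% of the 19458 gene symbols with a mean sum of at least 10, and Tnc at or above 10.8%. The order of neighbours held in 12 of 12 libraries for Spp1 over Sparc, 11 for Sparc over Postn, 8 for Postn over Fn1, 12 for Fn1 over Fbn1, 6 for Fbn1 over Bgn, 8 for Bgn over Lox and 7 for Lox over Tnc, so only Spp1 over Sparc and Fn1 over Fbn1 were separated in every library.

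Fn1 encodes fibronectin, which is assembled into fibrils that integrins bind. It had 27 intervals by name, all upstream of the gene, and none covered its start. Their sum was 1336 and 1513 scaled reads in the vehicle libraries, 1393 and 1349 with etomoxir and 841 and 1287 with etomoxir + SB204990 (set 1 and set 2). In the acetate libraries it was 1878 and 1990.0 without an inhibitor, 2384 and 2230.1 with etomoxir and 1469.5 and 1895 with etomoxir + SB204990. Both acetate libraries were above both of their counterparts in all 3 inhibitor backgrounds, and both etomoxir + SB204990 libraries were below both vehicle libraries. The strongest interval, chr1:71748519-71766706 (intergenic, 95.3 kb upstream), held 48.9% of the sum. The interval nearest to the start, chr1:71665497-71669297, lay 12.3 kb upstream and had a mean of 77.2.

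The gene body of Fn1 carried the mark too, in 10 intervals that the table named for Atic and Apol7d. The 1 over the start, chr1:71633441-71656095, was named for Apol7d, whose start in the authors' annotation also lies under it. This interval can therefore not be assigned to Fn1 alone. Its value was 858 and 858 scaled reads in the vehicle libraries, 876 and 842 with etomoxir and 526 and 654 with etomoxir + SB204990 (set 1 and set 2). Acetate alone gave 1342 and 1162, etomoxir + acetate 1447 and 1362 and both inhibitors with acetate 876 and 1128. All 3 pairs of groups with and without acetate were apart, as for the intervals by name. Assigned by position (overlap with the gene or the 2 kb upstream of it, a rule chosen after the values were seen), Fn1 had these 10 intervals, with a mean sum of 1783 scaled reads against 1630.4 for those by name.

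Thbs1 encodes thrombospondin-1, which is known to activate latent TGF-beta. It had no interval by name, but 1 interval of 25988 bp, chr2:118101188-118127175, covered the gene from its start to its end and was named for Gm13986. The start of Gm13986 in the authors' annotation also lies under this interval, so it cannot be assigned to Thbs1 alone. Its value was 767 and 771 scaled reads in the vehicle libraries, 867 and 858 with etomoxir and 573 and 667 with etomoxir + SB204990 (set 1 and set 2). The libraries with acetate held 1277 and 1138 (acetate alone), 1510 and 1535 (etomoxir) and 931 and 1256 (both inhibitors). The acetate libraries were above their counterparts of the same set in all 6 pairs, with ratios of 1.48 to 1.88. Both libraries with etomoxir alone were also above both vehicle libraries, and both etomoxir + SB204990 libraries were below them. By position these differences were log2 0.17 ± 0.19 and -0.31 ± 0.19, and neither was called (SE, n = 12 libraries, limma adjusted p = 0.904 and 0.515). Over all genes by name the medians were 0.14 and -0.18, and 25.5% had both etomoxir + SB204990 libraries below both vehicle libraries. Its 39.0 scaled reads per kb would place it between Spp1 and Sparc.

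Tnc encodes tenascin-C, which modulates the adhesion of cells to fibronectin. Its 9 intervals were the weakest per length. Their sum was 94.4 and 121 scaled reads in the vehicle libraries, 124 and 113 with etomoxir and 63.7 and 125 with etomoxir + SB204990 (set 1 and set 2). With acetate added it was 127 and 147 with acetate alone, 181 and 164 with etomoxir and 96.4 and 166 with both inhibitors. With both inhibitors the libraries with and without acetate overlapped. The interval over the start, chr4:64045890-64047696, had a mean of 26.4 and held 20.8% of the sum. The strongest distal interval, chr4:64013395-64016070, lay in an intron and held 34.5%.

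Postn encodes periostin, which binds collagen and fibronectin. It had 18 intervals. Their sum was 1204 and 1280.4 scaled reads in the vehicle libraries, 1196 and 1119 with etomoxir and 679 and 1001 with etomoxir + SB204990 (set 1 and set 2). In the acetate libraries it was 1732 and 1581 without an inhibitor, 1960 and 1942 with etomoxir and 1079 and 1450.1 with etomoxir + SB204990. Both acetate libraries were above both counterparts in each background, and the 2 lowest libraries were those with etomoxir + SB204990. The interval over the start, chr3:54360968-54361234, was 267 bp long and held only 0.378% of the sum, with 1.19 to 11.5 scaled reads in a library, so it was not tested. The strongest interval, chr3:54474772-54485981, was intergenic, lay 114 kb downstream of the start and held 40.4%. By position, only 53.0 of the 1352 scaled reads (means of 12 libraries) lay over the gene or within 2 kb upstream.

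Spp1 encodes osteopontin, a phosphoprotein that binds integrins and CD44. It had 8 intervals and the highest sum of the members by name. The sum was 1837 and 1923 scaled reads in the vehicle libraries, 1880.2 and 1938 with etomoxir and 1367 and 1513 with etomoxir + SB204990 (set 1 and set 2). Acetate alone gave 2820.2 and 2647, etomoxir + acetate 3414 and 3129.7 and both inhibitors with acetate 2063 and 2711. Again no acetate library overlapped its counterparts, and both etomoxir + SB204990 libraries were below both vehicle libraries. The start lay under chr5:104432551-104438350, which held 5.90% of the sum. The strongest interval, chr5:104390066-104413420, was intergenic, 21.7 kb upstream, and held 52.0%. The next, chr5:104451919-104468690, had a mean of 914, held 40.2% of the sum and covers the start of Pkd2, so it cannot be assigned to Spp1 alone. By position Spp1 kept only the interval over its start, with a mean of 134 scaled reads against 1783 for the intervals of Fn1.

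Sparc encodes SPARC, a collagen-binding matricellular protein. Of its 8 intervals, chr11:55403480-55431873 covered the start and held 86.8% of the sum, the opposite of the layout at Postn. The sum was 1008 and 1242 scaled reads in the vehicle libraries, 1038 and 1037 with etomoxir and 639 and 1002 with etomoxir + SB204990 (set 1 and set 2). The libraries with acetate held 1394 and 1604 (acetate alone), 1930 and 1863 (etomoxir) and 1131 and 1519 (both inhibitors). The acetate libraries stood above their counterparts in every background and the etomoxir + SB204990 libraries below vehicle, without overlap, although the closest of these, etomoxir + SB204990 in set 2 and vehicle in set 1, were nearly level. The strongest distal interval, chr11:55397188-55401586, lay in the gene, over an exon, and had a mean of 82.9.

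The fibre-building genes had low sums by name. Lox, the cross-linking enzyme, had 2 intervals, and chr18:52562556-52565510, 32.7 kb upstream of the start, held 92.3% of the sum. The sum was 45.3 and 39.6 scaled reads in the vehicle libraries, 41.7 and 37.2 with etomoxir and 19.5 and 38 with etomoxir + SB204990 (set 1 and set 2). With acetate added it was 77.3 and 69.8 with acetate alone, 89 and 67.2 with etomoxir and 64.0 and 80.7 with both inhibitors. The acetate libraries stood apart from their counterparts in each background, and no interval overlapped Lox itself or the 2 kb upstream of it. The other Lox interval, nearest to the start, had a mean of only 4.28.

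Fbn1 encodes fibrillin-1. The sum of its 7 intervals was 110.3 and 135 scaled reads in the vehicle libraries, 119 and 118 with etomoxir and 84.0 and 136 with etomoxir + SB204990 (set 1 and set 2). In the acetate libraries it was 164 and 190.4 without an inhibitor, 227 and 210.2 with etomoxir and 131 and 197 with etomoxir + SB204990. With both inhibitors the libraries with and without acetate overlapped, as did those with etomoxir + SB204990 and vehicle. All 7 lay upstream, the nearest 16.4 kb and the strongest (chr2:125539617-125542064) 31.6 kb from the start. Another 11 intervals, named for Gm14003 and Gm9913, overlapped the gene body, and no interval covered the start. Their mean sum was 817 against 152 for the 7 by name. The strongest of them, chr2:125290917-125307120, had a mean of 445 and lay partly beyond the end of the gene.

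Bgn encodes biglycan. The sum of its 5 intervals was 311 and 417 scaled reads in the vehicle libraries, 321 and 334 with etomoxir and 183 and 254 with etomoxir + SB204990 (set 1 and set 2). Acetate alone gave 486 and 524, etomoxir + acetate 515 and 521 and both inhibitors with acetate 281 and 399.8. The libraries with both inhibitors but no acetate were the lowest, below both vehicle libraries, and the acetate libraries were above their counterparts in every background. A single interval, chrX:73464075-73481929, held 93.8% of the sum and ended 1673 bp upstream of the start. The interval nearest to the start, chrX:73484840-73486190, lay 1238 bp inside the gene and had a mean of 10.0.

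**Figure D2:**
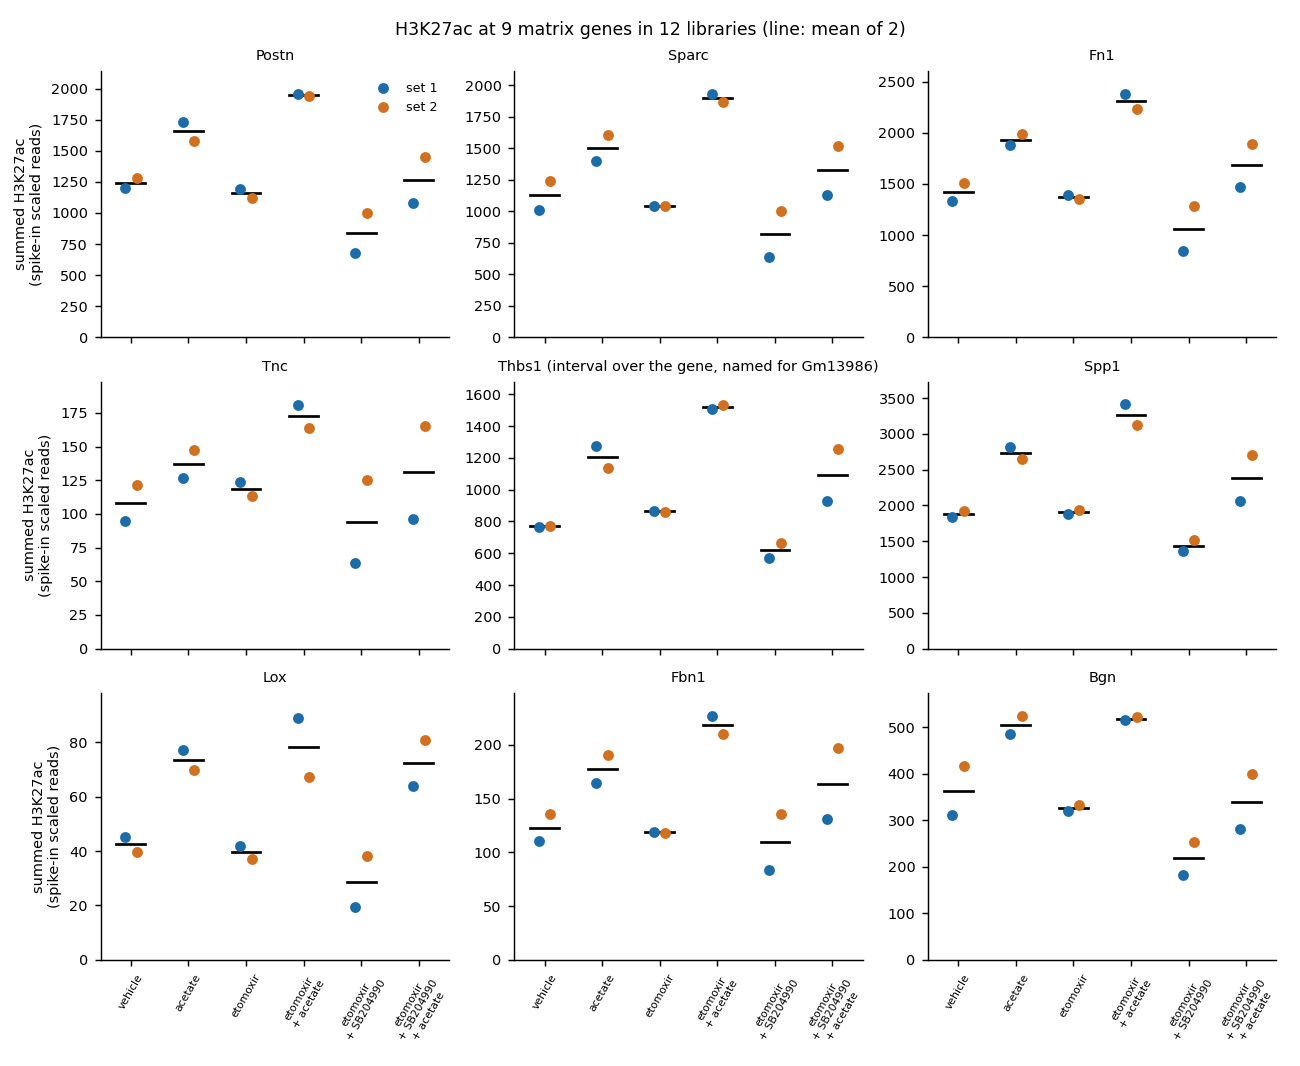
Summed H3K27ac of each gene in scaled reads for the 6 treatments, with 1 point per library (blue set 1, orange set 2) and a line at the mean of the 2. Thbs1 is the interval over the gene that was named for Gm13986. In each panel both etomoxir + acetate points stand above both etomoxir points.

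To see whether acetate raised H3K27ac at these genes, the sums by name were compared within each inhibitor background and as the average of the 3 acetate effects. In the average effect all 8 genes rose, and 88.2% of all 19458 genes tested were called in this comparison (limma, adjusted p under 0.05), so the members' count was near the background. The median log2 fold change was 0.64 over the members and 0.63 over all genes. Lox changed most, by log2 1.03 ± 0.21 (SE, n = 12 libraries, limma adjusted p = 0.000101), with 1.17 in set 1 and 0.90 in set 2. Tnc changed least, by log2 0.46 ± 0.18 (SE, n = 12 libraries, limma adjusted p = 0.0182). Its value was 0.30 without the etomoxir + SB204990 library of set 1, and 0.33 and no longer called without the etomoxir + SB204990 + acetate library of set 2, which left 7 of the 8 genes called (background 81.2%). The other 6 lay between 0.59 (Postn) and 0.68 (Spp1), and for each gene the value was above 0 in both sets and in 6 of 6 same-set pairs. The difference between Lox and the other genes was not tested.

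Within the backgrounds, etomoxir + acetate vs. etomoxir raised 7 of the 8 genes (background 78.2%), all but Tnc, with log2 0.54 (Tnc, adjusted p = 0.105 in limma) to 0.96 (Lox) and a median of 0.76 against 0.79 over all genes. With both inhibitors, acetate raised 6 of the 8 (background 57.7%), all but Tnc and Fbn1, with log2 0.50 to 1.37 and a median of 0.66 against 0.64. Without the etomoxir + SB204990 library of set 2 these values ran from 0.79 (Spp1) to 1.83 (Lox), with Tnc at 0.98 and Fbn1 at 0.92. Acetate vs. vehicle gave log2 0.35 to 0.78 (median 0.46 against 0.48), and limma called 0 of the 8 genes (background 0%), with 5 at an unadjusted p under 0.05 (42.9% of all genes) and 0 by edgeR. With 1 library left out, Tnc ran from 0.17 to 0.53, Bgn from 0.28 to 0.69 and Sparc from 0.27 to 0.57. Both acetate libraries were above both libraries without it in 8 of 8 genes against vehicle (background 84.2%), in 8 of 8 with etomoxir (98.3%) and in 6 of 8 with both inhibitors (70.3%). Within a set, the acetate library was above its counterpart in both sets in 8 of 8 genes in each comparison (background 94.5%, 99% and 87.2% in the same order). The acetate effect with etomoxir minus that without had 0 members called (background 0%), and so had the effect with both inhibitors minus that without (background 0%), with 0 at an unadjusted p under 0.05 (0.159% and 0.0565% of all genes) and 0 by edgeR in either. The plot of changes by gene shows the members beside the quartiles of all genes.

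**Figure D3:**
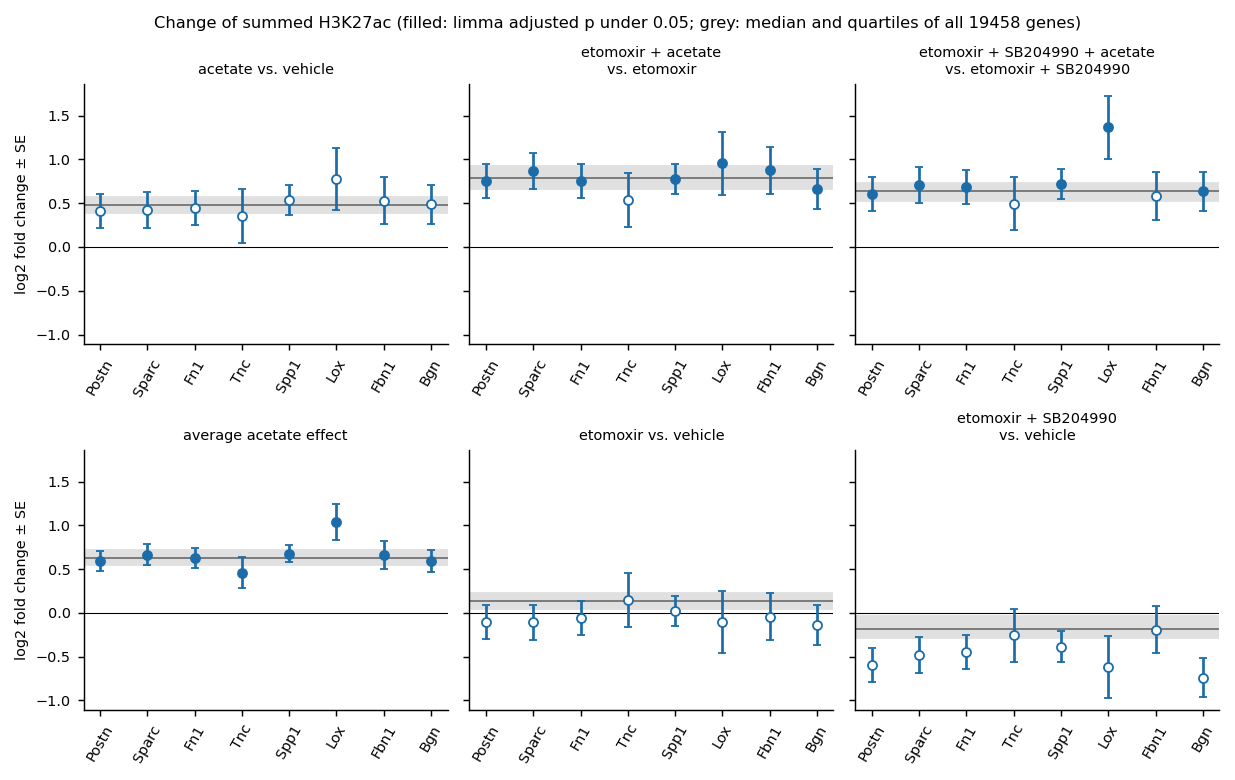
Log2 fold change of summed H3K27ac with its SE for 8 genes in 6 comparisons, with filled points where limma's adjusted p was under 0.05. The grey line and band give the median and quartiles of all 19458 genes. In the average acetate effect all 8 points are filled and Lox, at 1.03, stands highest, while in both inhibitor comparisons with vehicle no point is filled.

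The calls, and for some genes the direction, changed with the scaling. With median-of-ratios scaling, which removes a shift shared by all intervals, 0 of the 8 genes were called in any comparison (0% to 0.0103% of all genes), and the average acetate effect ran from -0.18 (Tnc) to 0.40 (Lox) with a median of 0.00077 (all genes -0.01). The effect turned below 0 for Postn, Fn1, Tnc and Bgn. For Lox the adjusted p was 0.878 under that scaling (limma). With shares of reads multiplied by the spike-in factor, also 0 of the 8 genes were called (0% of all genes in each comparison), but all 8 kept a value above 0 in acetate vs. vehicle, with etomoxir, with both inhibitors and in the average effect, from 0.57 to 0.99 with etomoxir (all genes 0.82) and from 0.26 to 0.83 in the average effect (all genes 0.43). Without the etomoxir + SB204990 library of set 2, acetate vs. vehicle called 7 genes (background 61.2%), etomoxir + acetate vs. etomoxir 8 (92%) and the acetate effect with both inhibitors 8 (91.4%). Without its set 1 counterpart the counts were 7, 8 and 2 (background 61.1%, 92.2% and 23.3%). Leaving out the etomoxir library of set 2 or the etomoxir + acetate library of set 1 left 4 calls with etomoxir (background 37.9% and 28.8%), and leaving out the etomoxir + SB204990 + acetate library of set 2 left 0 with both inhibitors (background 0%).

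By position, where Thbs1 takes the place of Lox among the 8 genes with an interval, the average acetate effect was called in 8 of 8 (background 97.1%), that with etomoxir in 7 (91.9%), that with both inhibitors in 7 (86.4%) and that without inhibitor in 4 (52%). Thbs1 rose by log2 0.76 ± 0.11 (SE, n = 12 libraries, limma adjusted p = 2.82e-10) in the average effect and by 0.65 ± 0.19 in acetate vs. vehicle (SE, n = 12 libraries, limma adjusted p = 0.037). Fn1 and Fbn1, whose intervals overlapping the gene are counted only by position, rose by 0.70 ± 0.11 and 0.77 ± 0.11 in the average effect.

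Taken singly, 31 of the 47 tested intervals rose in the average acetate effect and 0 fell (background 77.2%), with a median log2 of 0.62 against 0.64 over all 63903 tested intervals. The value was above 0 in all 47, also with shares times the factor, but in 22 of 47 with median-of-ratios scaling. Of the 3 tested intervals over a start, 2 rose, those of Sparc and Spp1. At Sparc the change was log2 0.66 ± 0.10 (SE, n = 12 libraries, limma adjusted p = 2.96e-09). At Spp1 it was log2 0.72 ± 0.14 (SE, n = 12 libraries, limma adjusted p = 3.19e-06). At Tnc it was log2 0.34 ± 0.24 (SE, n = 12 libraries, limma adjusted p = 0.178), which did not pass. Of the 44 distal ones, 29 rose. The calls went with the level, since all 10 intervals with a mean of 100 or more and all 13 from 30 to 100 rose, against 8 of 24 from 10 to 30. Of all intervals with a mean of at least 50, 23901 of 24109 rose when only these were fitted. The largest changes were at chr5:104446201-104446994 of Spp1, chr11:55401878-55402377 of Sparc and chr18:52562556-52565510 of Lox. They were log2 1.07 ± 0.32 (SE, n = 12 libraries, limma adjusted p = 0.00174) at Spp1, log2 1.07 ± 0.31 (SE, n = 12 libraries, limma adjusted p = 0.00146) at Sparc and log2 0.99 ± 0.19 (SE, n = 12 libraries, limma adjusted p = 2.31e-06) at Lox. The Spp1 and Sparc intervals had means of only 11.6 and 12.9 scaled reads.

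Among the intervals named for the gene whose start they cover, that of Sparc was the highest. It was 901 and 1073 scaled reads in the vehicle libraries, 897 and 929 with etomoxir and 562 and 826 with etomoxir + SB204990 (set 1 and set 2). The libraries with acetate held 1237 and 1390.5 (acetate alone), 1665 and 1578 (etomoxir) and 978 and 1335 (both inhibitors). The groups with and without acetate did not overlap in any background. At the start of Spp1 the value was 101 and 120.4 scaled reads in the vehicle libraries, 109.7 and 109.9 with etomoxir and 64.5 and 100 with etomoxir + SB204990 (set 1 and set 2). With acetate added it was 165 and 139 with acetate alone, 214 and 210.2 with etomoxir and 119 and 155 with both inhibitors. Here too they stood apart. At the start of Tnc the value was 22.9 and 30.1 scaled reads in the vehicle libraries, 22.3 and 23.5 with etomoxir and 19.9 and 19 with etomoxir + SB204990 (set 1 and set 2). In the acetate libraries it was 28.4 and 37.9 without an inhibitor, 38 and 26.9 with etomoxir and 18.1 and 29.5 with etomoxir + SB204990. The groups with and without acetate overlapped both without an inhibitor and with both of them, and stood apart with etomoxir.

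Among the strongest distal intervals, that of Postn lay 114 kb from the start. It was 523 and 543 scaled reads in the vehicle libraries, 470.3 and 454 with etomoxir and 288 and 349 with etomoxir + SB204990 (set 1 and set 2). Acetate alone gave 750.3 and 647, etomoxir + acetate 730 and 764 and both inhibitors with acetate 431 and 598. The groups with and without acetate were apart in each background, and both etomoxir + SB204990 libraries were below all others. The strongest Fn1 interval was 691 and 723 scaled reads in the vehicle libraries, 704 and 679 with etomoxir and 429 and 567 with etomoxir + SB204990 (set 1 and set 2). The libraries with acetate held 969 and 995 (acetate alone), 1075 and 1063 (etomoxir) and 724 and 957 (both inhibitors). The groups with and without it again did not overlap. The strongest Spp1 interval was 962 and 1032 scaled reads in the vehicle libraries, 950.4 and 979 with etomoxir and 694 and 805 with etomoxir + SB204990 (set 1 and set 2). With acetate added it was 1469.8 and 1446 with acetate alone, 1775 and 1618 with etomoxir and 1053 and 1394 with both inhibitors. No acetate library overlapped its counterparts there either.

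At the strongest distal intervals the average acetate effect was 0.99 ± 0.19 at Lox, 0.72 ± 0.18 at Fbn1, 0.60 ± 0.16 at Sparc, 0.69 ± 0.10 at Spp1, 0.62 ± 0.10 at Fn1, 0.59 ± 0.11 at Postn, 0.59 ± 0.12 at Bgn and 0.45 ± 0.20 at Tnc (log2 ± SE, n = 12 libraries, all called by limma). The Tnc interval was at 0.30 to 0.60 when 1 library was left out, and it lost its call without any single 1 of 8 libraries (vehicle set 1, etomoxir set 2, etomoxir + SB204990 set 1, etomoxir + SB204990 + acetate set 2 and both sets of acetate and of etomoxir + acetate). By gene, all 5 tested intervals rose at Sparc, 4 of 5 at Spp1, 10 of 16 at Fn1, 6 of 11 at Postn, 2 of 3 at Fbn1, 2 of 4 at Tnc, 1 of 2 at Bgn and the 1 at Lox. Since the calls went with the level of an interval, these counts do not rank the genes. The plot of the effect against the level shows that the values spread more widely at low intervals.

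**Figure D4:**
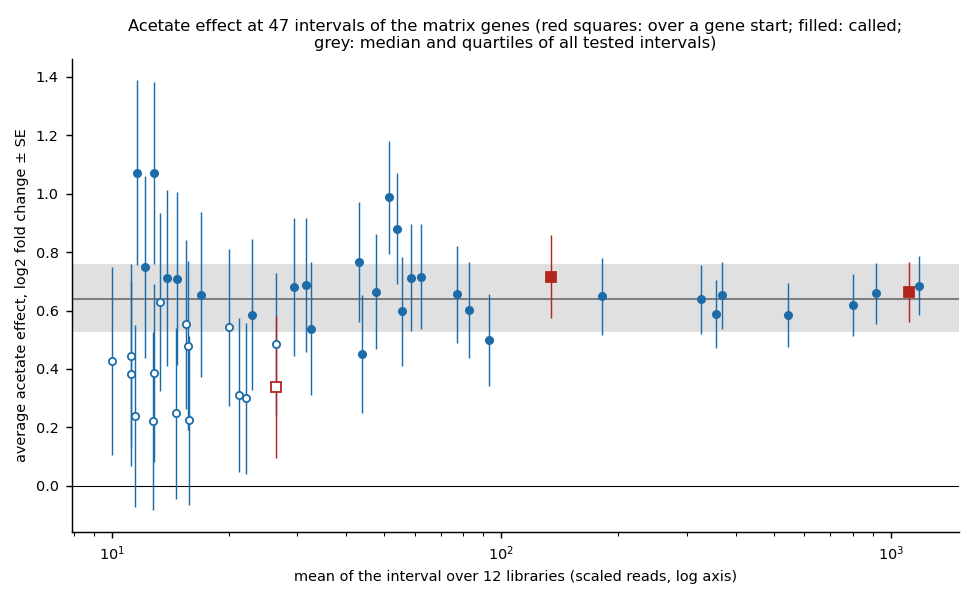
Average acetate effect (log2 fold change with its SE) of the 47 tested intervals against their mean in scaled reads on a log axis, with red squares for intervals over a start and filled symbols for those called. The grey line and band are the median and quartiles of all 63903 tested intervals. All 23 intervals with a mean of at least 30 are filled.

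Within the backgrounds, etomoxir + acetate vs. etomoxir raised 26 of the 47 intervals (2 over a start, 24 distal, background 56.4%) and the acetate effect with both inhibitors was called in 12 (2 over a start, 10 distal, background 27.4%). Acetate vs. vehicle called 0 (background 0.0955%), with 12 at an unadjusted p under 0.05 (26.5% of all intervals) and 0 by edgeR. The promoter and distal sums of each gene are given side by side. For Sparc the average acetate effect was 0.66 over the start and 0.70 at the distal sum, for Spp1 0.72 and 0.67, and for Tnc 0.34 and 0.50 (log2, not tested). The effect with etomoxir minus that without was called in 0 intervals (background 0%), with 1 at an unadjusted p under 0.05 (1.79% of all intervals) and 0 by edgeR, and the effect with both inhibitors minus that without in 0 (background 0.00156%), with 0 (0.246%) and 0.

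To see whether blocking the supply of acetyl-CoA lowered H3K27ac at these genes, the inhibitor treatments were compared with vehicle, whose 2 libraries also serve the comparison of acetate vs. vehicle. Etomoxir alone gave log2 -0.14 to 0.15, 2 genes above 0 and 6 below (all 8 below under both other scalings), with a median of -0.08 against 0.14 over all genes. Limma called 0 of the 8 genes (background 0.0154%), with 0 at an unadjusted p under 0.05 (0.684% of all genes) and 0 by edgeR. With etomoxir + SB204990 all 8 values were below 0, from -0.74 (Bgn) to -0.19 (Fbn1), and 6 of 8 with shares times the factor (all but Tnc and Fbn1), with a median of -0.47 in the limma fit against -0.18 over all genes. Limma again called 0 (background 0.00514%), with 5 at an unadjusted p under 0.05 (4.24% of all genes) and 0 by edgeR. The 5 were Postn, Sparc, Fn1, Spp1 and Bgn.

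For Bgn the difference was log2 -0.74 ± 0.22 (SE, n = 12 libraries, limma adjusted p = 0.777), with -0.76 in set 1 and -0.71 in set 2. For Postn it was log2 -0.59 ± 0.19 (SE, n = 12 libraries, limma adjusted p = 0.777), with -0.82 and -0.35. For Lox, at -0.62 ± 0.36, the sets gave -1.18 and -0.06, so its value rested on set 1. Both etomoxir + SB204990 libraries were below both vehicle libraries in 6 of 8 genes (background 25.5%), all but Tnc and Fbn1, and the same 6 were below vehicle of their own set in both sets (background 51.4%). Without the etomoxir + SB204990 library of set 2, 6 of the 8 genes fell (background 12.3%), all but Spp1 and Fbn1, by 0.74 (Tnc) to 1.08 (Lox) on the log2 scale, and the lone remaining library is then assumed to vary like the other groups. Without the library of set 1 instead, 0 of the 8 were called, with log2 -0.50 (Bgn) to 0.22 (Tnc), and of all genes 1064 were higher and 27 lower (median 0.11). Bgn fell by 0.97 without set 2 and was at -0.50 without set 1, and Postn fell by 0.87 and was at -0.31 in the same order. These fits set a library of 1 set against the vehicle libraries of both sets, so a difference between the sets enters them. The values within set 1 and set 2 given above do not mix the sets.

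Etomoxir + SB204990 vs. etomoxir gave log2 -0.60 to -0.15, all 8 below 0, with a median of -0.41 against -0.33 over all genes. Without the etomoxir + SB204990 library of set 2 the values ran from -0.98 (Lox) to -0.48 (Spp1). The direction changed with the scaling, and 6 of the 8 turned above 0 with shares times the factor (-0.10 to 0.35, all genes 0.16) and 1 with median-of-ratios scaling. Limma called 0 (background 0%), with 3 at an unadjusted p under 0.05 (21% of all genes) and 0 by edgeR, and 7 fell without the library of set 2 (background 63.8%). Without that of set 1, 0 were called, while 962 of all genes were higher and 223 lower (median -0.04). Per interval, etomoxir vs. vehicle called 0 of the 47 (background 0.0626%), with 0 at an unadjusted p under 0.05 (1.41% of all intervals) and 0 by edgeR. Etomoxir + SB204990 vs. vehicle called 0 (background 0.0532%), with 10 at an unadjusted p under 0.05 (5.06%) and 0 by edgeR, and against etomoxir it called 0 (background 0.0469%), with 9 (14.1%) and 0 in the same order. Against vehicle, 38 of the 47 intervals were below 0 (33 with median-of-ratios scaling and 24 with shares times the factor), with a median of -0.31 against -0.14 over all tested intervals. The values nearest to a call were at the strongest intervals of Bgn and Postn. At Bgn the difference was log2 -0.80 ± 0.20 (SE, n = 12 libraries, limma adjusted p = 0.0692), and at Postn log2 -0.75 ± 0.19 (SE, n = 12 libraries, limma adjusted p = 0.0749). It was -0.81 in set 1 and -0.80 in set 2 at Bgn, and -0.86 and -0.64 at Postn. Both passed when intervals with means under 50 were left out (background 0.436%), with limma adjusted p = 0.0228 at Bgn and 0.026 at Postn.

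The share of the mark held by each gene, in RPM of the reads in intervals, does not use the spike-in factors. Postn held 176 and 167 RPM in the vehicle libraries and 172 and 158 with acetate, 149 and 142 with etomoxir and 144 and 150.4 with etomoxir + acetate. With etomoxir + SB204990 it held 127 and 139, and 126 and 129 with acetate added. So the 4 libraries without an inhibitor were highest, the 4 with etomoxir lay in the middle and the 4 with both inhibitors were lowest, without overlap. Bgn showed the same order, with 45.6 to 54.3, 37.7 to 42.5 and 32.7 to 35.5 RPM. The order was noticed after the values were seen and held in 2 of the 8 members and in 0.19% of all genes.

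The other shares did not form 3 separate ranges. Fn1 lay between 187 and 199 RPM without an inhibitor, 172 and 175 with etomoxir and 157 and 179 with both. Sparc lay between 138 and 162, 129 and 144, and 119 and 139.6, so its ranges overlapped. Lox was the 1 gene whose share was higher with acetate in 6 of 6 same-set pairs, and Tnc the 1 gene whose share was higher in none, while the other 6 were higher in 1 (Postn) to 4 pairs. How many of all genes show either pattern was not counted, so neither is a trait of Lox or Tnc. Lox and Tnc also had the lowest mean sums by name, 55.8 and 127 scaled reads.

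**Figure D5:**
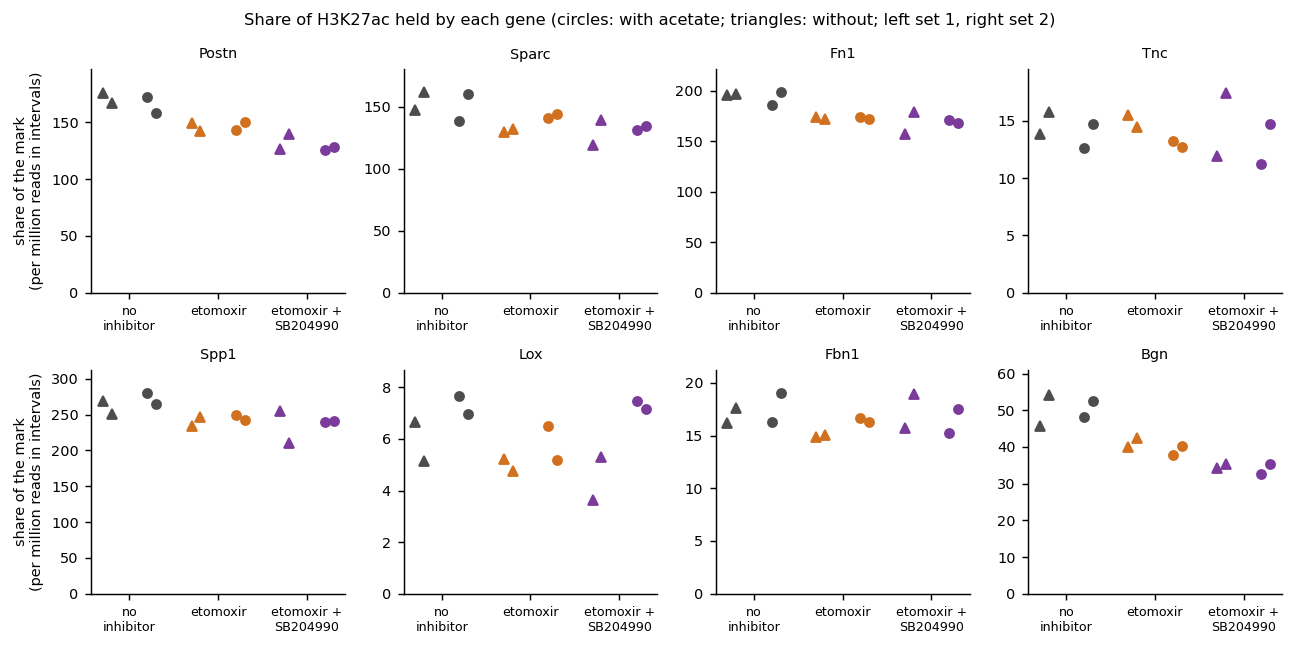
Share of H3K27ac held by each of 8 genes, in RPM of the reads in intervals, by inhibitor background (grey none, orange etomoxir, purple etomoxir + SB204990), with circles for libraries with acetate and triangles for those without, set 1 to the left of set 2. At Postn and Bgn the 3 backgrounds form separate, descending ranges.

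Other genes of the matrix were counted from a list of 80 symbols written from general knowledge (CCN proteins, further thrombospondins and tenascins, fibulins, small proteoglycans, lysyl oxidase-like enzymes, laminins and nidogens), of which 59 had an interval and 54 were tested. In the average acetate effect 50 rose and 0 fell (92.6% called, background 88.2%), with a median log2 of 0.69. The largest changes were at Matn3, encoding a matrilin (0.95 ± 0.32), Tnxb, encoding tenascin-X (0.90 ± 0.15), and Smoc1, a relative of Sparc (0.86 ± 0.26, log2 ± SE, n = 12 libraries). The 4 that were not called were Spock1, Fbln7, Kera and Lama1, with log2 -0.06 (Kera) to 0.62 (Fbln7). Limma called 0 of the 54 in etomoxir vs. vehicle, while 1 had an unadjusted p under 0.05, and the median log2 was 0.09 (all genes 0.0154%, 0.684% and 0.14 in this order). In etomoxir + SB204990 vs. vehicle it called 0, while 5 had an unadjusted p under 0.05, and the median was -0.22 (all genes 0.00514%, 4.24% and -0.18).

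After median-of-ratios scaling, the genes whose profile over the 12 libraries was most like the mean centred profile of the members were Togaram2 (Pearson r = 0.992), Gm28387 (0.991) and Gm50147 (0.983), of 13198 genes with a mean sum of at least 100. The points share libraries and their depth. Between members, r ran from 0.00849 to 0.951 over the 28 pairs (median 0.692) under that scaling, and from 0.803 to 0.995 (median 0.921) on the spike-in scaled values, which keep the shift shared by all genes.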

How the data were processed

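H3K27ac was measured by ChIP-seq in 12 libraries of 4T1 cells, 2 for each of 6 treatments of 48 h. Per the labels and the study's methods, the authors added 7.5% human chromatin to each sample, aligned the reads to a merged human and mouse (mm10) genome and called intervals. Each deposited interval carries a gene name and a distance to a transcription start, and the name is not always that of the gene it lies in. The authors deposited a signal per interval and library, which is the read count multiplied by a factor from the share of human reads, divided by the highest factor. The factors reach 1 once in each set, and the sources used here do not say whether the division was made within a set. The counts recovered from these deposited values were whole in 100% of cases (tolerance 0.001), and total 7179165 to 16676442 reads per library.

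Values were summed per gene name. Intervals and sums with a mean of at least 10 were fitted as log2(signal + 1) with limma 3.58.1 (R 4.3.3) with an intensity trend on all 12 libraries and 6 group means, and p-values were adjusted by the Benjamini-Hochberg method within each comparison over all features tested, with a threshold of 0.05. Fold changes are on this log2 scale, which understates those of low features. The alternatives were edgeR 4.0.16 on the recovered counts with the factors as offsets, median-of-ratios scaling, shares of reads times the factor, other filters and pseudocounts, no trend, a replicate block, only the libraries compared, other choices of intervals and leaving out each library. The fit was tested on simulated data with 200 changed features. An interval was called a promoter interval where it covered the GENCODE vM21 start of its gene. The members and lists were chosen with earlier results of these data known. The genes by position, the values and directions within set 1 and set 2, the order of the shares and the AP-1 density were chosen after seeing the data. The intervals named were, for each gene, the one over or nearest to the start and the strongest distal one, and the 3 with the largest average acetate effect among those called with the same sign in both sets. Other features named were chosen after their values were seen. Promoter windows and their 300 bases come from RefSeq (GRCm38.p6).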

Additional observations from a re-analysis of the deposited data

How the results depend on the processing

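Scaling changed the calls on acetate. Among the 8 genes, median-of-ratios scaling and shares of reads times the factor each left 0 calls with etomoxir, 0 with both inhibitors and 0 in the average effect, and so they did among the 47 intervals. Both settings also called 0 of all 19458 genes with etomoxir, and with shares times the factor the 8 members had log2 0.57 to 0.99 there. In acetate vs. vehicle, median-of-ratios scaling turned the sums of Postn (-0.082), Sparc (-0.079), Fn1 (-0.054), Tnc (-0.14) and Bgn (-0.011) below 0. In the average effect it did so for the sums of Postn (-0.054), Fn1 (-0.020), Tnc (-0.18) and Bgn (-0.049). It also did so for the strongest distal intervals of Postn (-0.058), Sparc (-0.034), Fn1 (-0.025), Tnc (-0.18) and Bgn (-0.053), for the Tnc interval over the start (-0.28) and for the Bgn interval nearest to the start (-0.16). In etomoxir + SB204990 vs. vehicle, the sum of Tnc turned to 0.016 with shares times the factor and to 0.22 without set 1 of etomoxir + SB204990. The sum of Fbn1 turned to 0.083 and 0.15 under the same settings and to 0.014 without its strongest interval. Without set 2 of etomoxir + SB204990, Tnc was at -0.74 and Fbn1 at -0.54. The sum of Bgn turned to 0.24 both without its strongest interval and with intervals centred within 20 kb of the start by the distances in the authors' table, which count from another start of Bgn and so leave out that interval.

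Fitting only the libraries compared gave 7 genes and 11 intervals in acetate vs. vehicle and 0 genes and 0 intervals with both inhibitors, against 61.5% of all genes and 23.3% of all intervals in the first and 0% and 0.00156% in the second. With intervals within 20 kb by these distances, where 5 genes could be tested, 4 were called with etomoxir, 2 with both inhibitors and 5 in the average effect (all genes 81.3%, 60.3% and 92.2%). Without the strongest interval, 0 genes were called with both inhibitors, and without the intensity trend 0 intervals (0% of all genes and of all intervals). By position, acetate vs. vehicle called 4 genes (52% of all). With a mean of at least 50, which left 18 intervals, 18 were called in the average effect (99.1% of all intervals), 3 in acetate vs. vehicle (25.6%, 1 of Fn1 and 2 of Spp1) and 2 in etomoxir + SB204990 vs. vehicle (0.436%, Postn and Bgn). By the table's own promoter label, the promoter minus distal difference at Sparc was 0.41 on the log2 scale. The causes were not tested.

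Leaving out 1 library at a time gave 0 to 7 genes in acetate vs. vehicle, 4 to 8 with etomoxir, 0 to 8 with both inhibitors, 7 to 8 in the average effect, 0 to 6 in etomoxir + SB204990 vs. vehicle and 0 to 7 against etomoxir. Of all genes, 0% to 61.2%, 28.8% to 92.2%, 0% to 91.4%, 81.2% to 98.5%, 0% to 12.3% and 0% to 63.8% were called in the same order. For intervals the counts were 0 to 8, 5 to 32, 1 to 32, 24 to 40, 0 to 10 and 0 to 14 in the same order, against 0% to 21.2%, 8.05% to 76.8%, 3.31% to 71.6%, 58.2% to 94.8%, 0.00313% to 3.95% and 0.00156% to 25.1% of all intervals. The highest counts with both inhibitors and in both inhibitor comparisons came without the etomoxir + SB204990 library of set 2. A lone library left in a group was assumed to vary like the other groups, and it was compared with libraries of both sets.

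The set numbers were not taken to pair the libraries, since the labels do not say what they mark and 3 of 15 correlations of the deviations from the group means were over 0.1 (range -0.16 to 0.37). These 3 were the correlations among vehicle, acetate and etomoxir + SB204990. With the set as a replicate block, 1 gene and 1 interval were called in acetate vs. vehicle (20% of all genes and 3.26% of all intervals) and 2 intervals (Postn and Bgn) in etomoxir + SB204990 vs. vehicle (0.144%), and no other count of members moved by over 1.5 times.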
